A study of Homo sapiens with 4 samples.

Results

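The transcripts described here are the 347 rows of a deposited table of 16376 genes whose names begin with CTA-, CTB-, CTC- or CTD-. These prefixes belong to human bacterial artificial chromosome (BAC) libraries made at the California Institute of Technology (Caltech), and a name such as CTD-3247F14.2 gives the clone, then the number of a locus annotated on its insert. Manual annotators used such names for loci without an approved gene symbol, many of them long noncoding RNAs, antisense transcripts and pseudogenes, and some later proved to be coding genes. Long noncoding RNAs as a class are less abundant than mRNAs, and some act near the place where they are made while others have no known role. Loci that share a clone lie near each other in the genome.

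Expression was measured by RNA-seq of poly(A)-selected RNA from HCT116, a human colon cancer cell line, in 2 samples treated with hydrogen peroxide (H2O2) and 2 untreated Control samples. The labels give no dose or exposure time, and do not say whether the samples of each group were grown separately, so the tests measure a spread that may be technical. The table holds group means of read counts divided by size factors (normalized counts) and the authors' DESeq test, in groups A and B. Which group is which was taken from the word order of the table's name, with H2O2 as group B, and all directions rest on that. Whole reads of 4 libraries were recovered from the means, and within a group they are called the deeper and the shallower library, since they carry no replicate number.

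Summed over listed genes, the H2O2 libraries had 7365032 and 6858809 reads, against 7309731 and 6892854 for Control. Of the 8 colon epithelial markers, 7 were listed, all but CDX1, with summed means of 9219 in H2O2 and 8301 in Control. Their directions were mixed. EPCAM (2086 in H2O2 and 1714 in Control), KRT8 (2298 and 1864), KRT19 (3114 and 2921) and KRT18 (257 and 256) had the higher mean in H2O2. CDH1 (1116 and 1148), VIL1 (175 and 198) and CDX2 (172 and 200) had the higher mean in Control. Listed markers of other cell types were 1 of 4 for fibroblasts (COL1A1, 553 in H2O2 and 753 in Control), 2 of 4 for leukocytes (CD68, 10.6 and 9.10, and CD79A, 21.0 and 1.03) and 1 of 4 for endothelial cells (KDR, 10.9 and 6.43). The 2 Control libraries stood apart from each other. Their counts differed by a chi-square of 6.83 per degree of freedom, against 2.32 between the H2O2 libraries. Against the shallower Control library the shallower H2O2 library gave 5.71 and the deeper 6.47. Against the deeper Control library these were 11.1 and 12.4.

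CT clone-named loci took a small part of each library. They held 30919 and 27917 reads in the deeper and shallower H2O2 libraries (0.420% and 0.407% of listed reads) and 27677 and 28179 reads in the Control libraries (0.379% and 0.409%). The deeper Control library was thus the low one, and the other 3 lay close together. The 10 loci of highest mean took 36.7% and 37.7% of these reads in the H2O2 libraries and 30.1% and 33.7% in the Control libraries. Without those 10, summed normalized counts were 18901 and 18089 in the H2O2 libraries and 18552 and 19165 in the Control libraries. The deeper Control library was then no longer the lowest. Individual loci had means over both groups between 6.01 and 1913 normalized counts, with a median of 28.2 against 198 for all listed genes. A mean under 20 was found for 133 of the 347 (38.3%, against 14.6% of all listed genes), and a mean of at least 50 for 119 (34.3%, against 74.0%). Counts are not divided by length here, so they do not rank the loci by abundance. CTD- supplied 205 of the loci, CTC- 76, CTB- 48 and CTA- 18, from 246 clones in all.

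At an adjusted p under 0.05 in the authors' deposited table, 13 of the 347 loci were higher with H2O2, where 2.58% of all listed genes were higher, and 10 were lower, where 4.62% were. As shares of the loci these are 3.75% and 2.88%, and the 23 together are 6.63%, against 7.19% of all listed genes. The remaining 324 loci did not pass. Their calls thus came at about the rate of the whole table. In RNA from whole cultures, fewer cells of a kind and less RNA per cell cannot be told apart. The median log2 ratio of the 347 was -0.014 in the authors' deposited table, beside 0.00029 for all listed genes, with 167 loci above 0 and 180 below. Their interquartile range was -0.37 to 0.29, wider than the -0.22 to 0.18 of all listed genes. Under a mean of 20 it was -0.44 to 0.48, beside -0.41 to 0.53 of all listed genes. Between 20 and 50 it was -0.47 to 0.30, beside -0.36 to 0.27, and at 50 or more -0.23 to 0.15, beside -0.18 to 0.15.

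**Figure D1:**
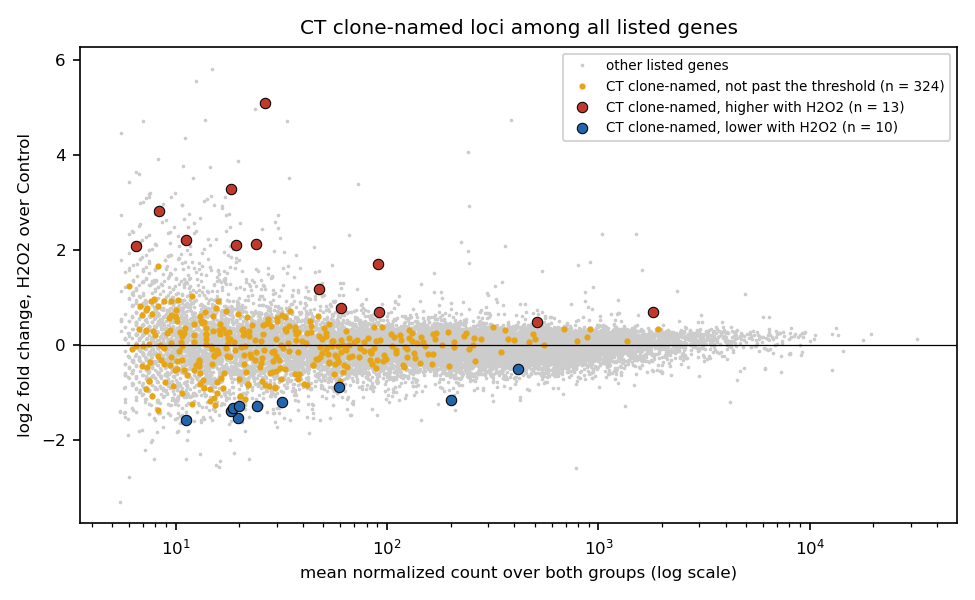
Each point is a listed gene, with its mean normalized count over both groups on a log x axis and its log2 fold change, H2O2 over Control, in the authors' deposited table on the y axis. The 13 higher and 10 lower CT clone-named loci are the outlined red and blue points, and the 324 that did not pass lie in a band that widens at low means. 1 gene listed at 0 in Control, outside these loci, has no finite fold change and is not drawn.

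Among the risen loci, 7 of 13 had a Control mean under 10 normalized counts. No gene with a mean over both groups under 5.46 is listed. A locus near silent in Control is thus listed only where H2O2 is high. Of all listed genes with a mean under 20, 5.62% were called higher and 1.68% lower. The highest ratio of the 13 belonged to CTD-3247F14.2, with 52 and 51 reads in the deeper and shallower H2O2 libraries against 1 and 2 reads in the Control libraries. Both H2O2 libraries were high and both Control libraries close to silent. In the authors' deposited table its group means were 51.6 in H2O2 and 1.51 in Control, a ratio of 34.3 (adjusted p = 1.42e-16), with a 95% counting interval of 11.5 to 171 from the reads. That ratio was the 3rd largest of the 16375 finite ratios in the table. limma, run on the recovered libraries, gave 4.43 ± 0.43 on the log2(normalized count + 1) scale (SE, 2 libraries per group, adjusted p = 3.41e-05).

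CTD-2639E6.9 came next, with 44 and 23 reads in the H2O2 libraries and 6 and 1 in the Control libraries. The libraries of a group differed here, but the lower H2O2 library stood well above the higher Control library. Its limma log2 fold change was 4.02 without the deeper Control library and 2.29 without the shallower, and passed in both. Its ratio in the authors' deposited table was 9.80 (adjusted p = 8.72e-08), with a counting interval of 4.44 to 25.0. CTD-2184C24.2 had 15 and 14 reads in the H2O2 libraries against 0 and 4 in the Control libraries, a ratio of 7.07 in the authors' deposited table (adjusted p = 0.00105, counting interval 2.57 to 28.7). The empty library was the deeper Control. Without it limma no longer passed this locus (adjusted p = 0.0639), and neither did it without the deeper H2O2 library (0.0676) or the shallower (0.0539).

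The other 4 loci of low Control mean had ratios between 4.26 and 4.62 in the authors' deposited table. CTD-2031P19.3 had 24 and 13 reads in the H2O2 libraries and 4 and 4 in the Control libraries. CTC-241N9.1 had 40 and 38 reads in the H2O2 libraries and 9 and 9 in the Control libraries, close to each other in both groups. CTB-119C2.1 had 36 and 27 reads with H2O2 against 11 and 4 in Control. The groups of these 3 loci do not overlap, like those of 51.9% of all listed genes, and limma passed all 3 (adjusted p = 0.0292, 0.00354 and 0.0119). For CTB-119C2.1 the limma log2 fold change was 2.66 without the deeper and 1.48 without the shallower Control library, past the threshold in both. CTD-2165H16.4, with 11 and 10 reads in the H2O2 libraries against 3 and 2 in the Control libraries, passed in the authors' deposited table (adjusted p = 0.0373) and not in limma (0.0771). Its counting interval was 1.56 to 14.4, so its size is poorly known. With the deeper H2O2 library left out, limma did not pass CTD-2031P19.3 (adjusted p = 0.367).

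The 6 risen loci with a Control mean of at least 10 had ratios of 1.39 to 3.24 in the authors' deposited table. Of all listed genes with a mean under 20, all 134 called higher rose at least 2-fold. The threshold thus passes only large ratios at low means, and the smaller ratios here are a description alone. CTA-29F11.1 had 142 and 134 reads in the H2O2 libraries against 29 and 56 in the Control libraries. The shallower Control library held more reads than the deeper one, and both stayed far under the H2O2 libraries. Its ratio was 3.24 in the authors' deposited table (adjusted p = 6.28e-11), and limma gave 1.76 ± 0.27 on the log2 scale (adjusted p = 0.00227). Without the deeper Control library, which was the low one, the limma log2 fold change was 1.25, and 2.27 without the shallower.

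CTC-250I14.6 was among the most read of the clone-named loci, with 2405 and 2063 reads in the H2O2 libraries against 1250 and 1533 in the Control libraries. Its rise was 1.61-fold in the authors' deposited table (adjusted p = 8.12e-06). Summed over all clone-named loci, normalized counts were 29846 and 29038 in the H2O2 libraries and 26529 and 28926 in the Control libraries. The groups were thus barely apart. Without CTC-250I14.6 the sums were 27525 and 26892 in the H2O2 libraries and 25331 and 27352 in the Control libraries, and the groups overlapped. With groups so close, leaving out another risen locus could do the same, so the overlap does not single out CTC-250I14.6. With the deeper H2O2 library dropped, limma no longer called it (adjusted p = 0.0588). CTD-2256P15.4 had 600 and 587 reads with H2O2 and 421 and 440 in Control, a ratio of 1.39 in the authors' deposited table (adjusted p = 0.0148). This was the smallest rise that passed, and limma lost it when either H2O2 library was left out (adjusted p = 0.208 without the deeper and 0.291 without the shallower).

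CTC-338M12.4 had 72 and 60 reads in the H2O2 libraries and 28 and 31 in the Control libraries, 2.25-fold higher with H2O2 in the authors' deposited table (adjusted p = 0.00212). CTB-58E17.1 had 117 and 109 reads in the H2O2 libraries against 57 and 83 in the Control libraries, 1.62-fold higher there (adjusted p = 0.0257). In CTD-2292P10.4 the deeper H2O2 library stood alone, with 106 reads against 49 in the shallower, and 52 and 39 in the Control libraries. That locus passed in the authors' deposited table (ratio 1.71, adjusted p = 0.0402). limma did not pass CTB-58E17.1 or CTD-2292P10.4 (adjusted p = 0.0787 and 0.202). The limma log2 fold change of CTB-58E17.1 was 0.41 without the deeper Control library (adjusted p = 0.265) and 1.04 without the shallower (adjusted p = 1.51e-04), so the call rested on which Control library was kept. Without the deeper H2O2 library the log2 fold change of CTD-2292P10.4 was 0.19, against 0.68 with all libraries. Without that library limma did not pass CTC-338M12.4 either (adjusted p = 0.102).

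**Figure D2:**
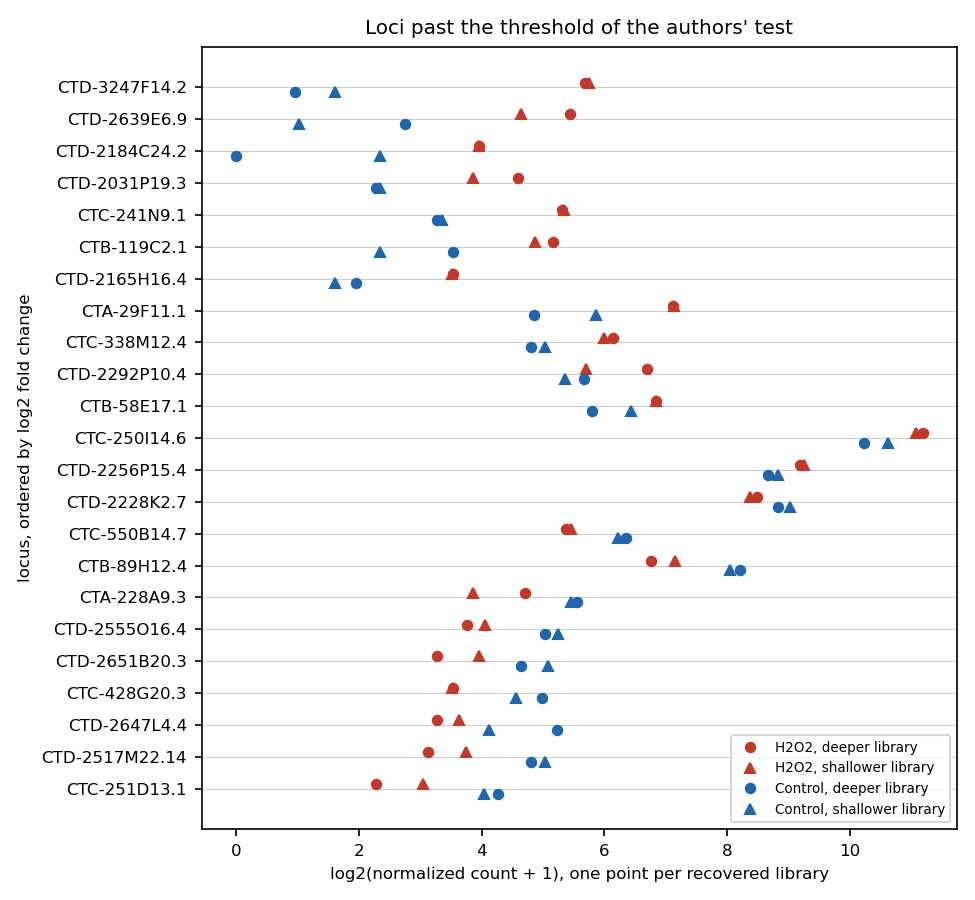
The x axis gives log2(normalized count + 1) and each row is 1 of the 23 loci past the authors' threshold, ordered by log2 fold change. Red points are the H2O2 libraries and blue points the Control libraries, with circles for the deeper and triangles for the shallower library of each group. In all 23 rows the groups do not overlap, which is also true of 51.9% of all listed genes.

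Of the 10 fallen loci, CTB-89H12.4 had the smallest adjusted p. It had 111 and 136 reads in the H2O2 libraries against 309 and 255 in the Control libraries, a fall with a ratio of 0.446 in the authors' deposited table (adjusted p = 2.62e-09). limma gave a log2 fold change of -1.17 ± 0.17 (SE, n = 2 libraries each, adjusted p = 0.00122). It was the 1 fallen locus that limma passed with each of the 4 libraries left out in turn. CTD-2228K2.7, with 371 and 316 reads in the H2O2 libraries and 474 and 504 in the Control libraries, fell with a ratio of 0.707 in the authors' deposited table (adjusted p = 0.0144). Its groups were close and narrow, and limma lost it when either H2O2 library was left out (adjusted p = 0.147 without the deeper and 0.302 without the shallower). CTC-550B14.7 had 42 and 41 reads in the H2O2 libraries against 84 and 72 in the Control libraries (ratio 0.539 in the authors' deposited table). limma passed CTC-550B14.7 with all libraries (adjusted p = 0.0360) and lost it without the deeper H2O2 (0.147), the shallower H2O2 (0.0714) or the deeper Control library (0.0622).

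The other 7 fallen loci had means under 50 normalized counts and ratios between 0.332 and 0.433 in the authors' deposited table. CTA-228A9.3 had 26 and 13 reads in the H2O2 libraries and 48 and 42 in the Control libraries. CTD-2517M22.14 had 8 and 12 reads with H2O2 and 28 and 31 in Control, and CTD-2555O16.4 had 13 and 15 with H2O2 and 33 and 36 in Control. These 3 also passed in limma (adjusted p = 0.0444, 0.0325 and 0.0415). CTA-228A9.3 was lost without the shallower H2O2 library (adjusted p = 0.287), CTD-2517M22.14 without the deeper H2O2 library (0.174), and CTD-2555O16.4 without the deeper H2O2 or the shallower Control library (0.181 and 0.0567).

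Another 4 fallen loci passed in the authors' deposited table and not in limma. CTC-251D13.1 had the lowest ratio of the 10, with 4 and 7 reads in the H2O2 libraries and 19 and 15 in the Control libraries. CTC-428G20.3 had 11 and 10 reads with H2O2 and 32 and 22 in Control, and CTD-2651B20.3 had 9 and 14 with H2O2 and 25 and 32 in Control. In CTD-2647L4.4 the deeper Control library was high, with 38 reads against 16 in the shallower, beside 9 and 11 reads with H2O2. Adjusted p-values in limma ran from 0.0608 to 0.111 for these 4, and the log2 fold change of CTD-2647L4.4 was -0.67 without the deeper Control library, against -1.22 with all 4.

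Over all 347 loci limma passed 16, beside 4.1% of all listed genes. Of these 10 were higher and 6 lower, beside 1.52% and 2.58% of all listed genes, and each was also passed by the authors' test in the same direction. With each library left out in turn, 6 of the 23 loci passed in all 4 limma fits, so 6 of the 347, beside 1.11% of all listed genes that passed both tests so. These were CTD-3247F14.2, CTD-2639E6.9, CTC-241N9.1, CTB-119C2.1 and CTA-29F11.1, all higher, and CTB-89H12.4, lower. Every one of the 23 kept its direction in all 4 fits. Their groups do not overlap, so leaving out a library could not change it. Without the shallower Control library limma passed 24 loci as higher and 20 as lower, beside 10.6% and 11.6% of all listed genes. Without the deeper Control library it passed 13 and 10, beside 3.71% and 4.81%. Leaving out the deeper H2O2 library gave 5 higher and 4 lower, beside 0.635% and 1.1% of all listed genes, and leaving out the shallower gave 9 and 5, beside 1.29% and 1.84%. A fit that leaves a group with 1 library takes its spread from the other group.

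**Figure D3:**
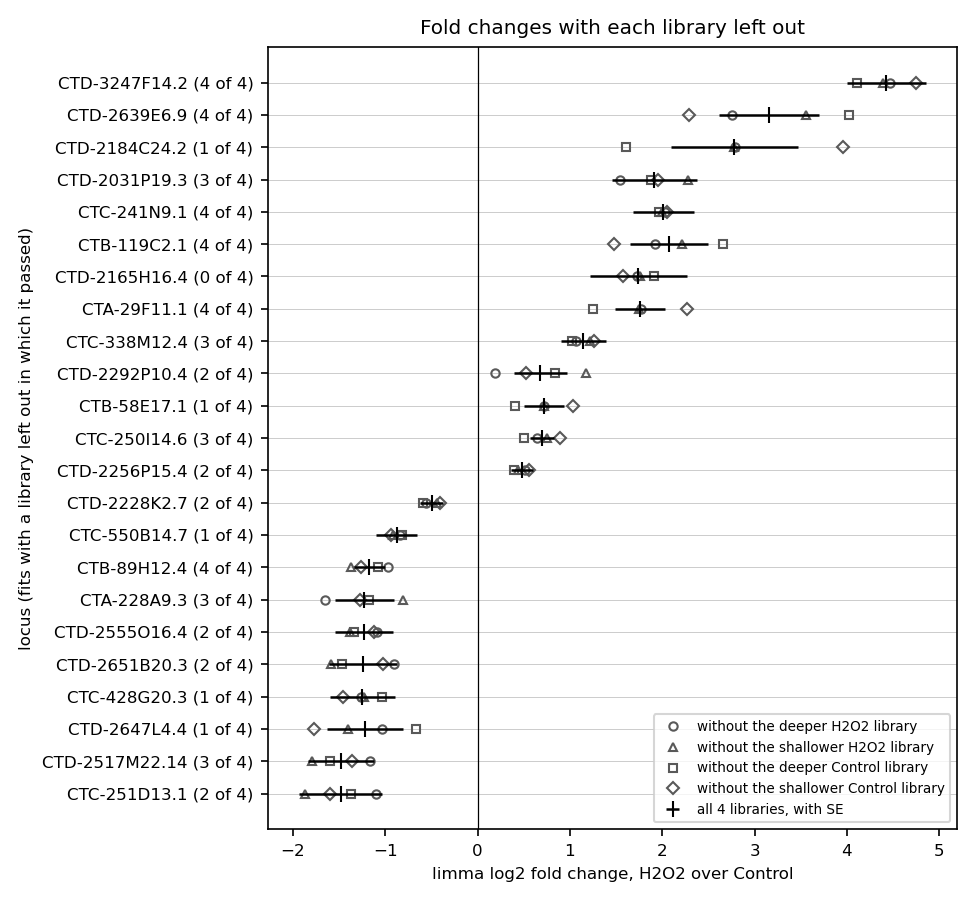
The x axis gives the limma log2 fold change, H2O2 over Control, and each row is 1 of the 23 loci past the authors' threshold. Black bars show the fit of all 4 libraries with its SE, and open symbols the 4 fits with a library left out. CTD-3247F14.2 stays between 4.11 and 4.75, while CTD-2184C24.2 spans 1.60 to 3.96.

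The libraries of these loci spread more widely than those of the whole table. The median absolute log2 difference was 0.31 between the group means, 0.26 between the H2O2 libraries and 0.31 between the Control libraries. For all listed genes these medians were 0.19, 0.13 and 0.20. A difference of means averages over 2 libraries and one between libraries does not, so the 3 values are not a test of the groups. Under a mean of 20 the medians between H2O2 and between Control libraries were 0.40 and 0.43, beside 0.42 and 0.43 for all listed genes. Between 20 and 50 they were 0.32 and 0.25, beside 0.27 and 0.30, and at 50 or more 0.13 and 0.25, beside 0.11 and 0.17. Loci named after RP clones had 0.27 and 0.31. Groups did not overlap for 88 loci in the higher direction and 87 in the lower, which are 25.4% and 25.1% of the 347, beside 26.3% and 25.6% of all listed genes. At an unadjusted p under 0.05 in the authors' deposited table stood 64 loci (18.4%), beside 19.6% of all listed genes.

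A total of 30 of the 347 loci differed by 2-fold or more in the authors' deposited table (8.65%, beside 4.07% of all listed genes). Of these, 9 were called higher and 8 lower, where 1.44% and 0.769% of all listed genes were called with such a change, and 13 did not pass, beside 1.86% of all listed genes, 11 of them with a mean under 20. In the authors' deposited table, with an adjusted p under 0.01, 9 loci were higher, beside 1.48% of all listed genes, and 2 lower, beside 2.44%. Under 0.1 these were 15 higher, beside 3.57%, and 15 lower, beside 6.51%. By mean, the higher and lower calls were 5 and 4 of 133 loci under 20 normalized counts, 3 and 3 of 95 between 20 and 50, and 5 and 3 of 119 at 50 or more. Of all listed genes with such a mean 7.24% were called. Of the CT clone-named loci there 4.20% were higher and 2.52% lower, beside 1.81% and 5.43% of those genes. Between 20 and 50 the shares were 3.16% and 3.16%, beside 3.68% and 3.09%, and under a mean of 20 they were 3.76% and 3.01%, beside 5.62% and 1.68%. No test of these differences in share was made, and none is drawn from them.

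At the threshold itself, the last loci inside were CTD-2165H16.4, CTD-2292P10.4 and CTC-251D13.1, with an adjusted p of 0.0373 to 0.0425 in the authors' deposited table. The first ones outside were CTC-429P9.3 at 0.0524, CTD-3099C6.9 at 0.0674 and CTD-2044J15.2 at 0.0732, where their log2 ratios were -0.76, -0.83 and -0.84. CTC-429P9.3 had 47 and 42 reads in the H2O2 libraries against 80 and 72 in the Control libraries, and its groups do not overlap. CTD-3099C6.9 had 29 and 29 reads with H2O2 against 82 and 24 in Control, so that 1 Control library lay above the H2O2 libraries and the other below. Without the deeper Control library its limma log2 fold change was 0.23, the opposite sign.

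Of the uncalled loci whose mean was 20 or more, the highest log2 fold changes in the authors' deposited table were those of CTD-3222D19.7 (0.72), CTD-2267D19.2 (0.63), CTB-31O20.2 (0.62), CTD-2514K5.2 (0.59) and CTD-2033D15.1 (0.58). CTD-3222D19.7 had 54 and 33 reads in the H2O2 libraries and 27 and 26 in the Control libraries. CTD-2514K5.2 had 40 and 39 reads with H2O2 and 39 and 15 in Control, and without the shallower Control library its limma log2 fold change was 0.080. The lowest values in the authors' deposited table belonged to CTD-2292M16.8 (-1.14), CTC-429P9.2 (-1.09), CTD-3065J16.6 (-0.90), CTC-462L7.1 (-0.88) and CTD-2135D7.2 (-0.87). CTD-2292M16.8 had 19 and 8 reads in the H2O2 libraries against 29 and 30 in the Control libraries, with an adjusted p of 0.0755 in the authors' deposited table. The groups do not overlap in any of these 10 loci, though CTD-2514K5.2 comes close. This is also true of 51.9% of all listed genes, and the 10 were picked for large changes.

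Of the 10 loci with the highest means, 2 passed, CTC-250I14.6 and CTD-2256P15.4, where 7.19% of all listed genes passed. The most read was CTC-425F1.4, with 2219 and 2047 reads in the H2O2 libraries against 1510 and 1882 in the Control libraries (log2 fold change 0.34, adjusted p = 0.0804 in the authors' deposited table). CTB-43P18.1 had 1030 and 997 reads with H2O2 against 749 and 879 in Control (0.33 on the log2 scale, adjusted p = 0.109 in the authors' deposited table). CTD-2659N19.10 had 837 and 691 reads in the H2O2 libraries and 587 and 631 in the Control libraries (0.33, adjusted p = 0.106 there). In these 3 loci both H2O2 libraries were above both Control libraries, once scaled for depth, as in 26.3% of all listed genes. None of the 3 passed the threshold. All 3 depended on the Control library kept. Without the shallower one limma passed them at log2 fold changes of 0.56, 0.50 and 0.44, in a fit that called 10.6% of all listed genes higher. Without the deeper one they were 0.14, 0.17 and 0.23 and did not pass. CTB-12A17.3 (0.078), CTD-2033A16.1 (0.16), CTD-2231E14.8 (0.083), CTC-349C3.1 (-0.011) and CTC-518P12.6 (0.13) lay closer to 0 on the log2 scale of the authors' deposited table, with adjusted p-values of 0.542 to 0.996. In limma CTD-2033A16.1, CTC-518P12.6 and CTD-2231E14.8 stood at -0.055, -0.085 and -0.048 without the deeper Control library, and at 0.39, 0.37 and 0.23 without the shallower, where CTD-2033A16.1 and CTC-518P12.6 passed (adjusted p = 0.00149 and 0.0112).

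Loci on the same clone can be compared with each other, because they share a stretch of the genome. Of 246 clones, 180 carried 1 listed locus, 47 carried 2 and 19 carried 3 to 6. The 23 calls fell on 23 different clones, 11 of them with further listed loci. CTC-250I14.3, beside the risen CTC-250I14.6, stood at a log2 ratio of -0.086, and CTD-2031P19.5, beside CTD-2031P19.3, at -0.18 in the authors' deposited table. Beside the fallen CTC-428G20.3 and CTD-2228K2.7, CTC-428G20.6 stood at -0.036 and CTD-2228K2.5 at -0.045 there. CTD-2651B20.1 was closer to its fallen neighbour CTD-2651B20.3, at -1.13 and -1.29 in the authors' deposited table, but did not pass (adjusted p = 0.134). CTD-2256P15.2 stood at 0.51 beside the risen CTD-2256P15.4 at 0.48, with an adjusted p of 0.435. Of the 47 clones with 2 loci, both were above 0 in 8 and both below 0 in 11.

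On the CTD-2647L4 clone all 3 loci were below 0 in the authors' deposited table, with CTD-2647L4.1 at -1.18 and CTD-2647L4.5 at -0.39 beside the fallen CTD-2647L4.4 at -1.39. The 4 loci of CTC-429P9 lay between -1.09 and -0.30 without passing. On CTD-2517M22 the fallen CTD-2517M22.14 stood at -1.54 and its 2 neighbours CTD-2517M22.16 and CTD-2517M22.17 at -0.034 and -0.14. The 6 loci of CTB-31O20 lay on both sides of 0, from -0.56 for CTB-31O20.4 to 0.62 for CTB-31O20.2, as did the 6 of CTD-2619J13 and the 6 of CTD-3193O13. CTB-58E17 held the risen CTB-58E17.1 at 0.69, with CTB-58E17.5 at 0.65, CTB-58E17.3 at 0.24 and CTB-58E17.9 at -0.28 in the authors' deposited table.

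**Figure D4:**
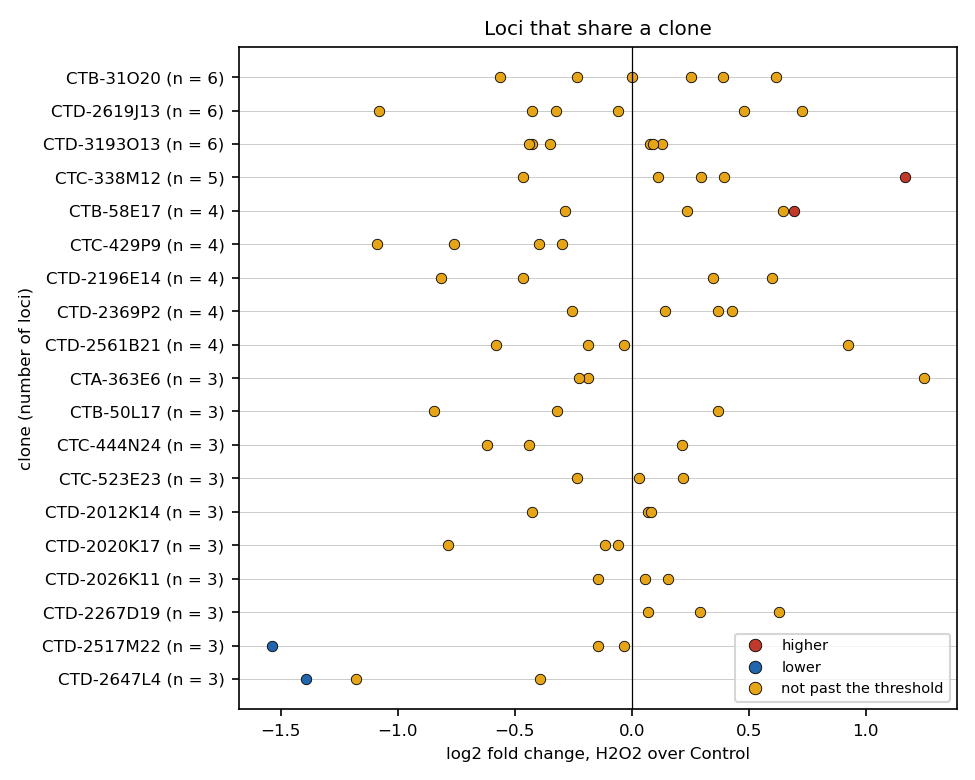
Each row is 1 of the 19 clones with at least 3 listed loci, and each point a locus at its log2 fold change, H2O2 over Control, in the authors' deposited table. Red marks a locus called higher, blue one called lower and yellow one not past the threshold. No clone has more than 1 called locus, and most have loci on both sides of 0.

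A current annotation could be matched to 5 of the 347 loci (1.44%), all on chromosome 5, through RefSeq (GRCh38.p14) symbols and synonyms. Since the table is on hg19, no coordinates are given, and the other 342 loci are known here by name alone. CTC-338M12.4 keeps its clone name and is a lncRNA in RefSeq, overlapping TRIM52, which encodes a protein of the tripartite motif family. All 5 of its GENCODE 29 transcripts, 629 to 1868 bases long, hold stretches that lie on the opposite strand of TRIM52 or of RACK1 (GNB2L1 in the table), the gene of a scaffold protein of the ribosome. Of the 75-base words of these transcripts, 20.4% to 100% also occur in transcripts of those genes in reverse, and 32.1% of one transcript's words occur in TRIM52-AS1 on the same strand. Whether strand was used in counting, and how reads shared by genes were counted, is not given in the sources used here. Without strand, reads from the opposite-strand stretches cannot be told apart. Strand would not separate those shared with TRIM52-AS1. The rise of CTC-338M12.4 is thus uncertain, and what such reads add to it was not tested. TRIM52 had group means of 317 in H2O2 and 262 in Control in the authors' deposited table, a log2 ratio of 0.28 (adjusted p = 0.327), and GNB2L1 stood at 0.17 (adjusted p = 0.597). TRIM52-AS1 stood at 0.16 there (adjusted p = 0.784).

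The clone CTC-338M12 held 4 more listed loci, CTC-338M12.1, CTC-338M12.5, CTC-338M12.6 and CTC-338M12.7, whose log2 ratios were -0.46, 0.39, 0.30 and 0.11 in the authors' deposited table. None of these passed, and CTC-338M12.4 alone of the 5 reached a doubling of its Control mean.

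The other 4 annotated loci did not pass. CTC-534A2.2 is SHLD3, the gene of a subunit of shieldin, a complex that protects broken DNA ends from resection. It had 22 and 30 reads in the H2O2 libraries and 30 and 20 in the Control libraries, and the groups overlap. CTC-436P18.1 is SMIM15-AS1, antisense to SMIM15, the gene of a small membrane protein, with 84 and 85 reads in the H2O2 libraries and 95 and 61 in the Control libraries. CTC-436P18.1 and SMIM15 stood at 0.14 and 0.15 on the log2 scale in the authors' deposited table, and neither passed. CTB-118N6.3 is SEMA6A-AS1, with 22 and 25 reads with H2O2 and 24 and 18 in Control. Its partner SEMA6A, a semaphorin gene, stood at -0.26 in the authors' deposited table (adjusted p = 0.410). CTB-178M22.2 is TENM2-AS1, with 12 and 8 reads in the H2O2 libraries against 13 and 9 in the Control libraries. In all 4 loci the libraries of both groups overlapped, where the groups of 51.9% of all listed genes do not.

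The other rows of the table carry other kinds of names. Of 1670 loci named after RP clones, another set of BAC and related libraries, 3.05% were higher and 3.35% lower in the authors' deposited table, with a median log2 fold change of -0.032 and a median mean of 24.5 normalized counts. Accession names (484 rows) had 2.48% higher and 2.89% lower, and names of antisense RNAs ending in -AS (375 rows) 2.93% and 1.33%. LINC names, for intergenic noncoding RNAs (104 rows), had 9.62% higher and 10.6% lower. All other names, coding genes among them (13396 rows, median mean 276), had 2.43% and 4.93%. These shares are descriptions, and no difference between kinds of names was tested. Within the CT names, the higher and lower calls were 7 and 5 of 205 CTD- loci (3.41% and 2.44%) and 3 and 3 of 76 CTC- loci (3.95% each). They were 2 and 1 of 48 CTB- loci (4.17% and 2.08%) and 1 and 1 of 18 CTA- loci (5.56% each). Of all listed genes 2.58% were higher and 4.62% lower.

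**Figure D5:**
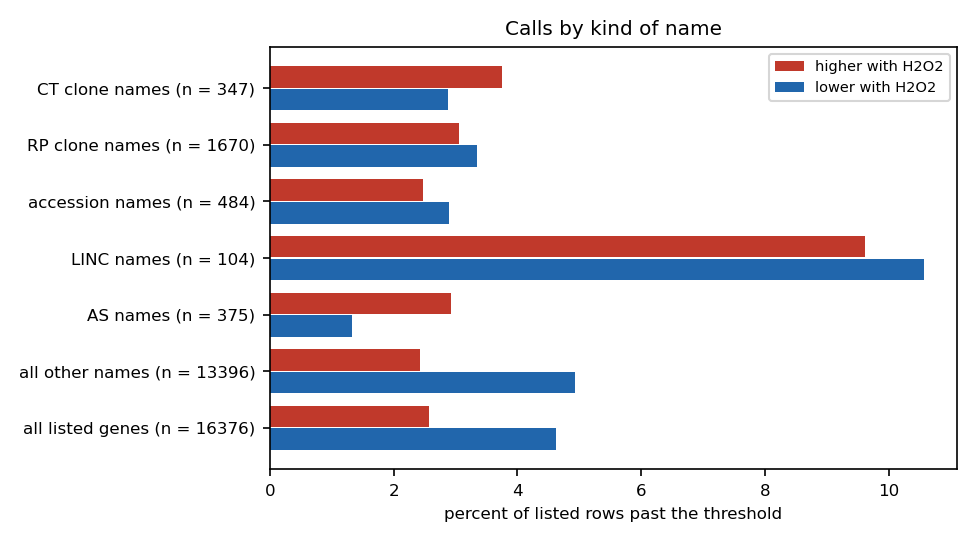
Bars give the percent of rows called higher (red) and lower (blue) with H2O2 in the authors' deposited table at an adjusted p under 0.05, for 6 kinds of names and for all listed genes. CT clone names have 3.75% higher and 2.88% lower, beside 2.58% and 4.62% of all listed genes.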

How the data were processed

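The data are RNA-seq of 2 H2O2-treated and 2 untreated HCT116 samples. STAR, HTSeq and DESeq, with CASAVA 1.8, Trim Galore and FastQC, are named in the submitters' processing notes, as is the build hg19. The annotation is not given in the sources used here, nor are strand and filters. Per the file headers, the deposited table holds the authors' group means of counts divided by size factors (a signal), their ratio (fold change) with its log2, and p-values with their Benjamini-Hochberg adjustment. The lowest listed mean over both groups is 5.46, so loci below it are not analysed here.

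Each group mean was solved for 2 whole counts (tolerance 1e-09). Every one of 16376 genes gave 1 solution per group, and median-of-ratios factors of these counts equalled the recovered ones within 1e-12. The recovery and limma were tested on simulated data. The main result is the authors' test. As an alternative, limma 3.58.1 (R 4.3.3) with a mean-variance trend was run over all genes on log2(normalized count + 1), with Benjamini-Hochberg adjustment. Its adjusted p-values are those given as limma's, and its fold changes understate low loci. Counting intervals are exact 95% intervals of the ratio of reads and cover counting error only. Every pair of libraries differed by more than sampling noise.

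The members, lists and tests were chosen with earlier results of these data known. Named loci are all past the threshold, the 10 highest means, the 5 largest rises and falls not past it at a mean of at least 20, the 3 on either side of it, and those on clones with 3 or more loci, the last mostly given as ranges. Annotated loci and their neighbours were chosen for having an entry in RefSeq or GENCODE 29.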

Additional observations from a re-analysis of the deposited data

How the results depend on the processing

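Against 13 higher and 10 lower loci, a minimum mean of 20 left 8 and 6, and a minimum of 50 left 5 and 3. For both minimums the p-values were adjusted anew over the genes kept, and shares of all genes were not computed so. In the authors' adjustment, 1.81% of all listed genes with a mean of at least 50 were higher and 5.43% lower. CTD- loci alone gave 7 and 5, beside 2.58% and 4.62% of all listed genes. Each of these counts came from fewer loci. An adjusted p under 0.01 in the authors' test gave 9 higher and 2 lower, beside 1.48% and 2.44% of all listed genes. One under 0.1 gave 15 and 15, beside 3.57% and 6.51%. limma gave 10 and 6, beside 1.52% and 2.58% of all listed genes. It gave 10 and 6 likewise with a pseudocount of 0.5 or scaled to totals, and the cause of the fewer lower calls was not tested. Over the fits with a library left out, higher calls ranged from 5 to 24 and lower calls from 4 to 20. The median log2 fold change, -0.014 in the main result, ran from -0.048 to 0.020 with a library left out. In all alternatives it stayed within the spread between libraries (0.038) of the main value. That spread is made from the same differences between libraries, so leaving out a library could hardly move the median past it. For those fits this is no test of stability. All 23 called loci kept their sign in every alternative, and 7 were lost in limma. In limma with the same size factors, with or without a library left out, the sign could not change, since the groups of all 23 do not overlap. Adding 1 or 5 to both group means cannot change it either. Of the loci, 133 had a mean under 20, where few reads stand behind each value. Count tests (edgeR, DESeq2) were not run on the recovered reads. No paired analysis was possible because the deposited columns are group means and the recovered libraries carry no replicate numbers.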
